A study of Mus musculus with 6 samples.

Results

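Gata3, Il4ra, Il17rb and Il1rl1 were examined as the set formed by the transcription factor GATA3 and the receptor chains for the type 2 cytokines IL-4, IL-25 and IL-33. The members were the rows whose gene name was 1 of these 4, among 47729 genes listed and 13602 tested, and all 4 passed the filter on low values. The RNA came from follicular helper T (Tfh) cells, which give help to B cells in germinal centres. They were sorted from mouse spleen by CD4, TCR beta, high PD-1 and high CXCR5. All mice had received the hapten-carrier antigen NP-OVA by intraperitoneal injection. Of 6 libraries, 3 were labelled dko (Cbl-/- Cbl-b-/-), a label that names a loss of both CBL ubiquitin ligases (double knockout), and 3 were labelled wt ctrl (control). Age, the way the genes were deleted and the number of mice per library are not given in the labels, so each p-value measures only how far these samples spread, which may be technical. The study asks how ICOS and the CBL ligases bear on Tfh development.

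GATA3 is the factor that directs CD4 T cells to the type 2 fate and is also needed to make CD4 T cells in the thymus. IL-4 binds the alpha chain encoded by Il4ra, which pairs with the common gamma chain or with IL-13 receptor alpha 1 and signals through STAT6, an inducer of Gata3. Il17rb encodes the IL-25-binding chain, which pairs with IL-17RA and recruits the adaptor ACT1, and Il1rl1 encodes ST2, which pairs with IL1RAP to bind IL-33 and recruits MYD88. CBL-B is known to ubiquitinate STAT6 in mouse T cells, and Tfh cells are a source of IL-4 in lymphoid tissue.

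The libraries held 23392254 to 38368885 reads assigned to genes. The 6 markers of the sort and of Tfh cells (Cd4, Cd3e, Cxcr5, Pdcd1, Bcl6, Icos) were abundant, between percentiles 93.2 and 99.3 of the genes tested in level per length, and none passed the test between genotypes (2 had an unadjusted p below 0.05, 0 passed with edgeR and 2 with DESeq2). Cbl had normalised counts of 2221 to 3856 in the double knockout and 8614 to 12950 in the control, whereas the whole-gene total of Cblb overlapped, at 7459 to 8054 against 6955 to 10040. These totals do not show a loss of Cblb, and which exons were removed is not stated in the labels. Xist stood at 12770 to 18100 in the double knockout and 12.9 to 970 in the control, and Ddx3y, on the Y chromosome, at 0 to 7.16 against 2812 to 3721. Sex by these transcripts and genotype cannot be told apart in any difference given here. Of all genes tested, 2.93% passed between genotypes, 1.85% as higher and 1.07% as lower (limma, double knockout against control, adjusted p below 0.05). The 3 double knockout libraries did not overlap the 3 controls in 23.6% of genes. Of the same 13602 genes, 2308 had an unadjusted p below 0.05 with limma, 405 passed with edgeR and 1098 with DESeq2. The counts given below for each list stand beside these.

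Among the 4 members, Il17rb fell and the other 3 did not pass the test. Il17rb was 4.49-fold lower in the double knockout, with every double knockout library below every control. Gata3, Il4ra and Il1rl1 overlapped between the genotypes. Every fold change sets the double knockout against the control, on the log2(normalised count + 1) scale, which understates changes of low genes, and means carry the SD over n = 3 libraries.

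**Figure D1:**
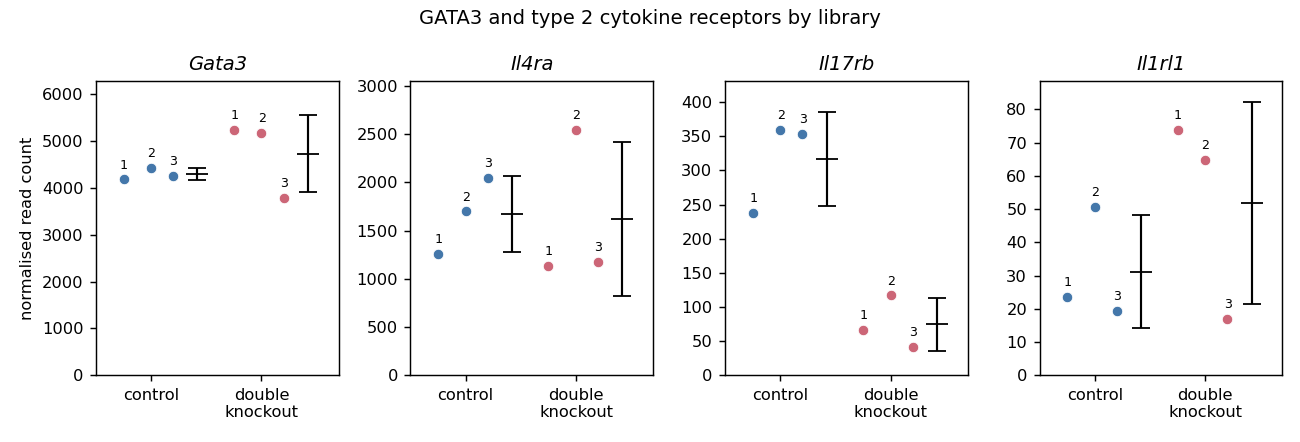
Normalised read counts (y axis, linear and starting at 0, 1 scale per gene) of Gata3, Il4ra, Il17rb and Il1rl1 in the 3 control (blue) and 3 double knockout (red) libraries, each point 1 library with its replicate number, and the bars the mean ± SD. The double knockout libraries of Il17rb, 41.2 to 117, lie below the controls, 238 to 359, and the groups overlap in the other 3 panels.

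The level per length set the members far apart. In RPKM, which scales reads to exon length and to the library total, Gata3 averaged 35.6 over the 6 libraries, Il4ra 8.60, Il17rb 1.65 and Il1rl1 0.19. These levels stood at percentiles 89.2, 61.0, 29.1 and 6.15 of the genes tested. Gata3 was the highest and Il1rl1 the lowest of the 4 in every library. The lowest Gata3 library (29.5) lay above the highest of Il4ra (13.5), and Il4ra did not overlap Il17rb. The lowest RPKM of Il17rb, 0.344 in double knockout replicate 3, was next to the highest of Il1rl1, 0.342 in double knockout replicate 1.

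**Figure D2:**
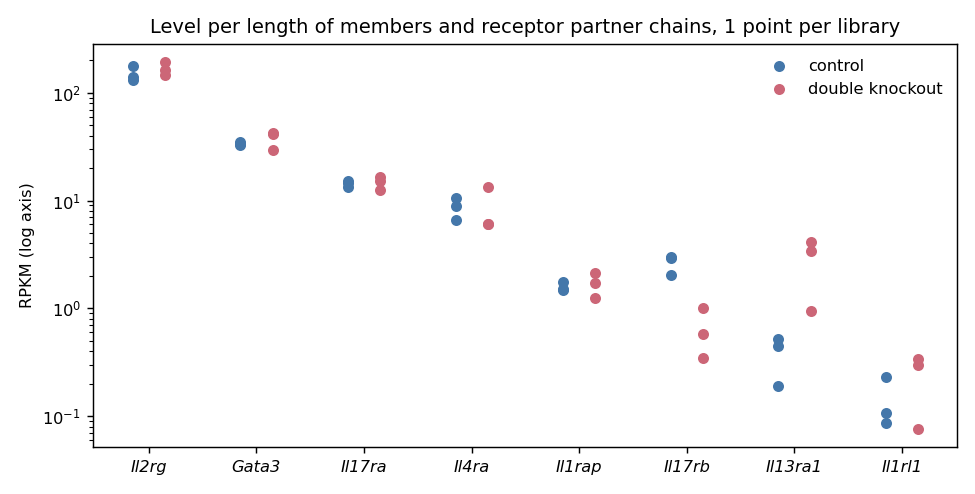
Level per length (RPKM, log axis) of the 4 members and their partner chains, 1 point per control (blue) or double knockout (red) library, with the mean level falling from left to right but for Il1rap and Il17rb, which are nearly equal. Il2rg is the highest, with a mean of 158.6, and Il1rl1 the lowest, with a mean of 0.19. Il17rb and Il13ra1 are the 2 genes whose groups are apart, in opposite directions, as the normalised counts were in 23.6% of all genes tested.

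Gata3 (ENSMUSG00000015619, GRCm38 chromosome 2, 9857078 to 9890034, minus strand) was an abundant transcript of both genotypes. Normalised counts of Gata3 were 5228, 5169 and 3777 in double knockout replicates 1 to 3 and 4177, 4424 and 4251 in control replicates 1 to 3. Double knockout replicates 1 and 2 lay above all controls and replicate 3 below all of them. The means were 4725 ± 821 and 4284 ± 127, a log2 fold change of 0.13 ± 0.14 (SE; 95% interval -0.19 to 0.44; limma adjusted p = 0.714). The interval runs from a 0.878-fold to a 1.36-fold level. The SD was 2.96% of the mean among controls and 17.4% among double knockouts, where counting error alone would give 1.6% and 1.4%. Without double knockout replicate 3 the log2 fold change was 0.28 (adjusted p = 0.194), and without replicate 1 it was 0.045 (adjusted p = 0.953). The antisense gene Gm13256 shares 155 exon bases with Gata3 and stood at 25.1 to 51.3.

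Il4ra (ENSMUSG00000030748, chromosome 7, 125552120 to 125579474, plus strand), the signalling chain for IL-4 and IL-13, had normalised counts of 1138, 2539 and 1172 in the double knockout and 1261, 1698 and 2045 in the control. The highest library was double knockout replicate 2, and the other 2 double knockouts were the 2 lowest of the 6. The means were 1616 ± 799 and 1668 ± 393, a log2 fold change of -0.12 ± 0.32 (95% interval -0.85 to 0.60; limma adjusted p = 0.898), which leaves room for a 1.80-fold lower or a 1.52-fold higher level. Without double knockout replicate 2 the value was -0.50 (adjusted p = 0.245), and its sign turned without control replicate 3 (0.037) or double knockout replicate 1 (0.076) or 3 (0.055). Double knockout replicate 2 was also the library with the most Foxp3, which marks regulatory T cells, at 5451 against 149.6 to 767.5 in the other 5. Of the other listed markers of these cells, Il2ra, Tnfrsf18 and Nrp1 were also highest there. Ctla4, at 5510, was the lowest of the double knockouts there, and Ikzf2, at 11115, was below every control. A link to Il4ra was not tested.

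Il17rb (ENSMUSG00000015966, chromosome 14, 29996135 to 30008896, minus strand), the receptor chain that binds IL-25, had normalised counts of 66.6, 117 and 41.2 in the double knockout and 238, 359 and 354 in the control. The highest double knockout library was at less than the lowest control, and the controls agreed more closely than the double knockouts. In whole reads these were 65, 143 and 46 against 232, 262 and 385. The means were 75.0 ± 38.7 and 317 ± 68.4, a log2 fold change of -2.17 ± 0.38 (95% interval -3.04 to -1.30, or 2.46-fold to 8.21-fold lower; limma adjusted p = 0.0274). The SD among double knockouts, 51.6% of the mean, was larger than the 11.8% that counting alone would give. The authors' deposited table has a log2 fold change of -1.53 ± 0.26 and an adjusted p of 6.83e-07 for Il17rb. The sign was the same in each of 6 fits that left out 1 library, with log2 fold changes of -2.55 to -1.81. The call ended in 4 of them, without control replicate 1 (adjusted p = 0.0783), control replicate 2 (0.108), control replicate 3 (0.0825) or double knockout replicate 1 (0.126).

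Il17rb overlaps Actr8, a gene on the opposite strand that encodes a chromatin remodelling subunit. The 2 genes share 141 of the 3707 exon bases of Il17rb, and no source used here gives the strand setting of the counting. Actr8 had 968 to 1218 normalised counts in the 6 libraries and a log2 fold change of -0.03 ± 0.12 (limma adjusted p = 0.938). Il17ra, the partner chain of Il17rb, differed little, at 4035 ± 476 against 4005 ± 265 (0.01 ± 0.11; 95% interval -0.26 to 0.27). Per length, Il17rb stood at 0.0349, 0.0665 and 0.0273 of Il17ra in the double knockout and at 0.149, 0.207 and 0.195 in the control. The ratio did not overlap between genotypes (exact permutation test, two-sided, p = 0.1, the smallest that 3 against 3 allow; 0.2 adjusted over 4 ratios). Of the rest of the IL-17 receptor family, Il17rd (57.1 ± 16.0 against 52.0 ± 5.72) and Il17re (33.3 ± 31.2 against 9.88 ± 6.55) were low and did not pass, and Il17rc, at 0 to 7.37, was below the filter. None of the 3 tested relatives of Il17rb passed (0 with an unadjusted p below 0.05, 0 with edgeR and 0 with DESeq2).

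**Figure D3:**
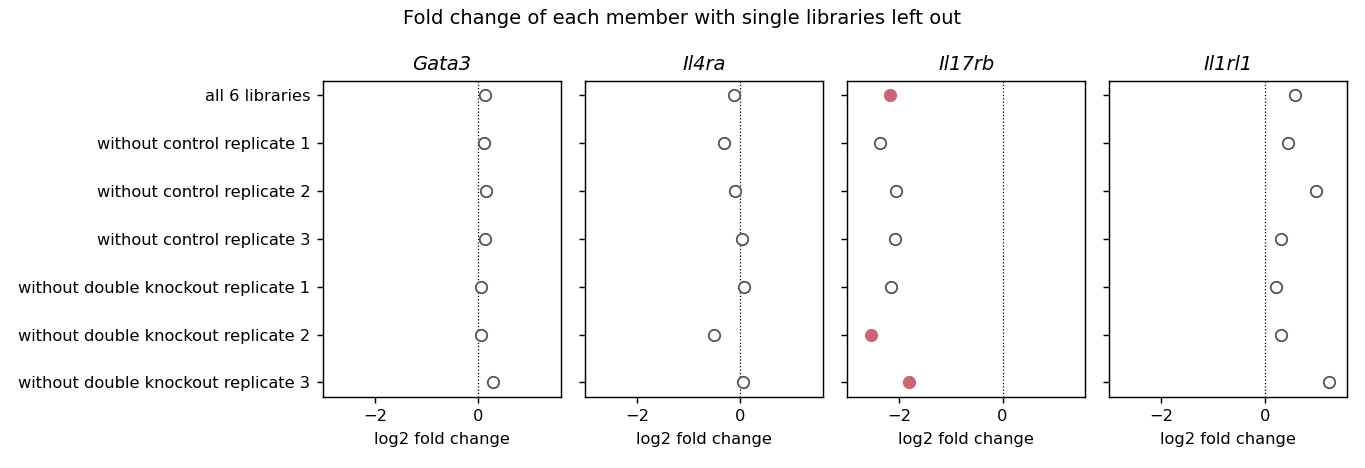
Log2 fold change, double knockout minus control (x axis), of each member with all 6 libraries and after removal of single libraries (y axis). Filled points passed the limma test at an adjusted p below 0.05. Il17rb stays between -2.55 and -1.81 and passes in the full fit and in 2 of the 6 others, while no point of Gata3, Il4ra or Il1rl1 passes.

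Il1rl1 (ENSMUSG00000026069, chromosome 1, 40429570 to 40465415, plus strand), the IL-33 receptor chain ST2, was near the floor of detection. In the double knockout it had 73.8, 64.7 and 17.0 normalised counts, and in the control 23.6, 50.7 and 19.3, from 19 to 79 whole reads per library. As for Gata3, double knockout replicates 1 and 2 were above all controls and replicate 3 below all of them. The means were 51.8 ± 30.5 and 31.2 ± 17.0, a log2 fold change of 0.59 ± 0.62 (95% interval -0.83 to 2.01; limma adjusted p = 0.701). The interval reaches from a 0.563-fold to a 4.04-fold level, so neither a fall nor a rise within that range is excluded. Without double knockout replicate 3 the log2 fold change was 1.25 (adjusted p = 0.259), without control replicate 2 it was 1.00 (0.565) and without double knockout replicate 1 it was 0.22 (0.950). The annotation gives 5 coding transcripts, which in mouse include a membrane and a soluble receptor, and gene totals do not separate them.

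Il1rl1 is a textbook target of GATA factors, so the sequence before its starts is shown beside that of Il17rb, the member that fell. Each line has the 250 bases before a start given by RefSeq (GRCm38.p6), 5′ to 3′. Capitals mark matches on either strand to the GATA core spelled AGATAA, its variant ending in G (AGATAG), or the same starting with T (TGATAA, and then TGATAG). A second search, for the STAT6 spacing of TTC and GAA with 4 bases between them, found no match in the windows of the 4 genes. The first line is the distal Il1rl1 start (chr1:40429320-40429569, plus strand), the second the proximal start (chr1:40439379-40439628, plus strand) and the third Il17rb (chr14:30008897-30009146, minus strand).
Il1rl1 distal: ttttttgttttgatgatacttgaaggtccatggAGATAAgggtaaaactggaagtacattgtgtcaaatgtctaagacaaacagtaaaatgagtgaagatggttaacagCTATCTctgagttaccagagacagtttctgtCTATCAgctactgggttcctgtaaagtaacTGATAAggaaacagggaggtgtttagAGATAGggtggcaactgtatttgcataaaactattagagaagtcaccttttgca
Il1rl1 proximal: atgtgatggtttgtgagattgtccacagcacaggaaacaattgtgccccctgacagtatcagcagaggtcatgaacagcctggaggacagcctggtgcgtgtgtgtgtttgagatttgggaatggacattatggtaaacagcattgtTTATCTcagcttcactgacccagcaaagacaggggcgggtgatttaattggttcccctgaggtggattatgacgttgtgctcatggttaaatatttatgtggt
Il17rb: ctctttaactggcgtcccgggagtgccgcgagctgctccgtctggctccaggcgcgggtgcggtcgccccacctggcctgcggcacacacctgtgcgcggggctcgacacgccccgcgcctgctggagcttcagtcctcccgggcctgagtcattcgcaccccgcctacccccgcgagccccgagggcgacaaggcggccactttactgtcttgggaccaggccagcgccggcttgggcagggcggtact

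The distal Il1rl1 window held 5 GATA matches, at 217, 141, 110, 80 and 54 bases before the start, and the proximal window held 1. Of 32841 promoter windows of the same length in the RefSeq table, 26.5% held at least 1 match and 14 (0.0426%) held 5 or more. The windows of Il17rb, Gata3 and Il4ra held none, and 5.85% of all windows held the STAT6 spacing. The distal Il1rl1 window was poor in G and C (37.6%), whereas that of Il17rb had 72.0%. A match is a description of letters, and RNA counts do not show which start was used.

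Among the 4 partner chains, Il13ra1 was the one whose libraries did not overlap, beside 23.6% of all genes tested. This X-linked gene encodes the IL-13-binding partner of IL-4R alpha. It had 399, 483 and 113 normalised counts in the double knockout and 52.3, 61.7 and 23.0 in the control, and the lowest double knockout, replicate 3, was nearest to the controls. The log2 fold change was 2.70 ± 0.59 and missed the threshold (limma adjusted p = 0.0542), while edgeR (0.0437) and DESeq2 (3.03e-06) on the recovered reads called it higher. Over the refits its adjusted p ran from 3.03e-06 to 0.208, and the authors' deposited table has 4.37e-07. Il2rg, also X-linked, which encodes the common gamma chain, had 12620 ± 1592 against 11480 ± 1980 (0.14 ± 0.15), and Il1rap, the partner of ST2, had 610 ± 154 against 578 ± 60.0 (0.05 ± 0.20), and neither passed. The ratio per length of Il4ra to Il13ra1 was 1.76, 3.25 and 6.43 in the double knockout and 14.9, 17.0 and 55.1 in the control (exact permutation test, two-sided, p = 0.1; 0.2 adjusted over 4 ratios). The ratios of Il4ra to Il2rg and of Il1rl1 to Il1rap overlapped between genotypes (exact permutation test, p = 0.5 and 0.4).

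The ligands and cytokines of the type 2 programme came next. Il4, the Tfh-derived ligand of Il4ra, had 1474 ± 147 against 1251 ± 162 normalised counts (0.24 ± 0.13 on the log2 scale, limma adjusted p = 0.415), with a level per length of 34.9 RPKM. Il13 had 101, 74.6 and 63.5 normalised counts in the double knockout and 6.15, 31.5 and 20.2 in the control. All 3 double knockout libraries were above the controls, yet the log2 fold change of 2.22 ± 0.56 did not pass (adjusted p = 0.0812; range over the refits 0.00525, with DESeq2, to 0.289, and 0.00293 in the authors' deposited table). Areg, which encodes an epidermal growth factor receptor ligand made by type 2 cells, had 117 ± 47.7 against 48.0 ± 16.0 (1.23 ± 0.41, limma adjusted p = 0.173). The groups of Areg did not overlap, and its adjusted p is 0.0407 in the authors' deposited table. None of the 3 tested genes of this list passed (2 had an unadjusted p below 0.05, 0 passed with edgeR and 1 with DESeq2). Il9, Il25, Tslp and Il24 had no read in any library, Il5 was at most 0.819, and Il33 was at 0 to 17.4.

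Of the other receptors of type 2 cells, none of the 9 tested, partner chains included, passed with limma (2 had an unadjusted p below 0.05, 1 passed with edgeR and 2 with DESeq2), and their median log2 fold change was 0.05 against 0.00 for all genes tested. Il9r, the IL-9 receptor, was lower in every double knockout library, at 873, 737 and 370 against 1418, 1398 and 2853, with a log2 fold change of -1.52 ± 0.37 that did not pass (limma adjusted p = 0.0742; range over the refits 0.000449 to 0.158, and 0.000181 in the authors' deposited table). Ccr3, Il5ra, Ptgdr2 and Il13ra2 were below the filter.

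Among 18 signal relays of the 3 receptors, 17 were tested and 1 fell. Traf5, an adaptor of IL-17 receptor signalling, had 2235, 2294 and 2125 normalised counts against 3135, 3066 and 2959, a log2 fold change of -0.46 ± 0.09 (limma adjusted p = 0.0355). The groups did not overlap, but removing any 1 library ended the call, as did the replicate number as a block (0.0577; range over the refits 0.000548 to 0.164). Stat6 had 6646 ± 345 against 8364 ± 190 (-0.33 ± 0.09, adjusted p = 0.0934), and Jak3, the kinase bound to the common gamma chain, 12260 ± 634 against 9253 ± 261 (0.40 ± 0.09, adjusted p = 0.0573). DESeq2 called both (0.0184 and 0.00241). The ACT1 gene Traf3ip2 (2245 ± 129 against 2614 ± 343) and Myd88 (2602 ± 239 against 2239 ± 269) did not pass. The median of the list was -0.02, and 5 of its genes had an unadjusted p below 0.05, 1 passed with edgeR and 3 with DESeq2.

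Of 15 brakes on these receptors, Socs3 rose and 14 did not pass (median 0.08). Among the 15, 5 had an unadjusted p below 0.05, 1 passed with edgeR and 4 with DESeq2. Socs3, a feedback inhibitor of cytokine receptor kinases, had 3792, 3949 and 2434 against 901, 1229 and 1610 (log2 fold change 1.45 ± 0.25, limma adjusted p = 0.0256), without overlap. The call ended without control replicate 1 or 2 or double knockout replicate 1, and with the block (0.0643). Over the alternatives the adjusted p reached 0.131, and the log2 fold change was 1.24 to 1.67 with single libraries removed. Sigirr, a member of the IL-1 receptor family that restrains ST2, had 2519 ± 108 against 1960 ± 54.7 (0.36 ± 0.09, limma adjusted p = 0.079). DESeq2 called Sigirr (0.0171) and the authors' deposited table does not (0.0572). Socs1 had 1846 ± 255 against 1835 ± 361.

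Of 13 tested factors that act with GATA3, none passed (4 had an unadjusted p below 0.05, 0 passed with edgeR and 3 with DESeq2), with a median of 0.10. The smallest p belonged to Satb1, a chromatin organiser at the type 2 cytokine locus, with 6532 ± 1282 against 4084 ± 654 (log2 fold change 0.67 ± 0.18), and Tcf7, whose product TCF1 can induce Gata3, with 89750 ± 13830 against 126700 ± 6950 (-0.51 ± 0.16). Neither gene overlapped between genotypes, with limma adjusted p of 0.0932 and 0.151. DESeq2 called both (0.00954 and 0.0133), as does the authors' deposited table (0.0102 and 0.0231). Of 7 factors that oppose GATA3, Sox4 fell and 6 did not pass (median -0.05). Among the 7, 3 had an unadjusted p below 0.05, 1 passed with edgeR and 2 with DESeq2. Sox4, which in mouse binds GATA3 and represses the type 2 fate, had 87.1, 297 and 140 against 930, 905 and 848 (-2.53 ± 0.39, limma adjusted p = 0.0191). Its 3 controls were close together and its highest double knockout was far below them. The call ended without any 1 of the controls (adjusted p up to 0.0851), and the log2 fold change nearest to 0 with a single library removed was -2.12. Tbx21, which encodes T-bet, had 240 ± 88.0 against 125 ± 13.8 (0.88 ± 0.29, limma adjusted p = 0.16), without overlap. DESeq2 called Tbx21 higher (0.0382), as does the authors' deposited table (0.0337).

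In the rest of the GATA family levels were low. Gata1 (32.8, 36.9 and 14.3 against 20.5, 6.85 and 12.9) and Gata2 (12.2 ± 4.68 against 5.31 ± 4.16) did not pass (0 with an unadjusted p below 0.05, 0 with edgeR and 0 with DESeq2), and Gata4, Gata5 and Gata6 had no read. In the IL-1 receptor family, whose members listed here other than Il1rap and Sigirr sit with Il1rl1 on chromosome 1, Il1r2 rose and the other 6 listed relatives did not pass (median 0.36). Il1r2, a decoy for IL-1, had 1663, 1046 and 2134 against 399, 503 and 512 (log2 fold change 1.72 ± 0.25, limma adjusted p = 0.0157). The call ended without control replicate 1 or 2 or double knockout replicate 1 (adjusted p up to 0.0822), and the log2 fold change was 1.49 to 2.01 with single libraries removed. Its neighbours Il1r1 (6890 ± 1457 against 8076 ± 1257), Il1rl2 (745 ± 81.7 against 708 ± 92.7), Il18r1 (645 ± 378 against 237 ± 58.0) and Il18rap (223 ± 144 against 107 ± 20.8) did not pass with limma. DESeq2 called Il18r1 (0.0135), as does the authors' deposited table (0.00702). Over the 7 relatives 3 had an unadjusted p below 0.05, 1 passed with edgeR and 3 with DESeq2.

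Over all 73 tested genes of these pathway lists, each counted once and without the 4 members, Il1r2 and Socs3 rose and Sox4 and Traf5 fell. That is 5.48% of them, beside 2.93% of all genes tested, and 69 did not pass. With limma, 23 of the 73 had an unadjusted p below 0.05, beside 2308 of all 13602. DESeq2 called 17 of the 73, beside 1098 of all 13602.

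**Figure D4:**
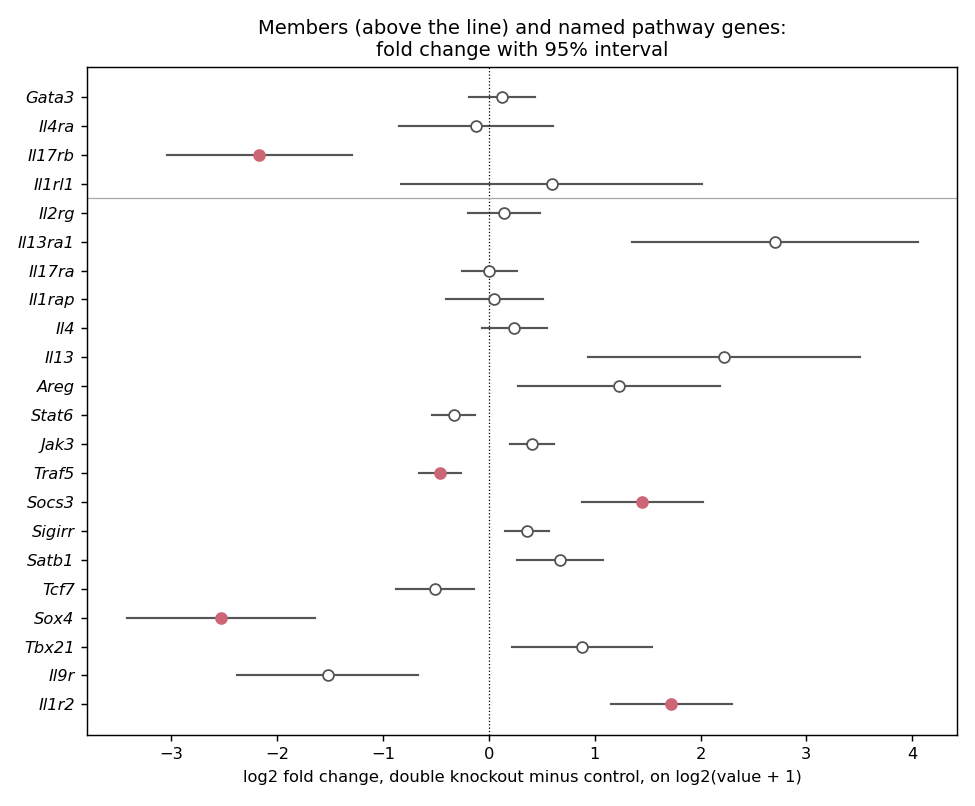
Log2 fold change, double knockout minus control on log2(normalised count + 1) (x axis), with its 95% interval for the 4 members (above the grey line) and 18 named pathway genes (below it). Filled points passed the limma test. Il17rb (-2.17) and Sox4 (-2.53) lie farthest to the left, and Il13ra1 (2.70) and Il13 (2.22), which did not pass, farthest to the right.

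Markers of other cells that carry these receptors were read in the same libraries. In bulk samples, fewer cells of a type and less RNA per cell cannot be told apart. Of 5 NKT cell markers, a cell type in which Il17rb is known to be expressed, 4 were tested and Klrb1c alone fell, at 366, 1122 and 888 against 2525, 2655 and 2222 (log2 fold change -1.78 ± 0.36, limma adjusted p = 0.0428). The call ended without any 1 of the controls or double knockout replicate 3, and with the block (0.0533), with an adjusted p of up to 0.153. As for Il17rb, double knockout replicate 2 was the highest of its group, still below every control. Double knockout replicates 1 and 3 stood in opposite order in the 2 genes, at 366 and 888 for Klrb1c and 66.6 and 41.2 for Il17rb. The summed NKT markers ran from 1419 to 2416 in the double knockout and from 3229 to 3320 in the control, and the lower sum is that of Klrb1c. The median log2 fold change of the 4 tested was 0.39, and Klrk1 (0.68) and Slamf1 (0.09) overlapped between genotypes. Zbtb16, which encodes the defining NKT factor PLZF, went the other way, at 207, 79.5 and 51.0 against 22.6, 28.8 and 5.51 (2.53 ± 0.69, adjusted p = 0.103). Of 5 gamma-delta T cell markers 4 were tested and Trdc alone rose, at 6352, 12060 and 5425 against 999, 902 and 815. Outside the list, some delta chain segments also passed as higher with limma, among them Trdv5 (log2 fold change 2.81, adjusted p = 0.0126) and Trdj1 (3.35, 0.0192). The other segments are not given here. The list's sum, 5519 to 12380 against 875 to 1056, was almost wholly Trdc. Each of the other 4 was at most 160.6 in any library, and Tcrg-C2, Tcrg-C1, Tcrg-C4 and Sox13 all overlapped between genotypes. Their part in the fall of Il17rb was not tested.

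Of 6 markers of type 2 innate lymphoid cells, 5 were tested and Kit fell (22.8 ± 17.6 against 171 ± 20.6 normalised counts, -3.24 ± 0.63 on the log2 scale, limma adjusted p = 0.0385), while none passed as higher. Areg was above the controls in every double knockout library, at 127, 64.7 and 158 against 61.5, 52.1 and 30.3, but did not pass. Of the 5 tested, 2 had an unadjusted p below 0.05, 1 passed with edgeR and 1 with DESeq2. The Kit call ended without any 1 of the controls, with quantile scaling, and with the block (0.0613), with an adjusted p of up to 0.144. The 6 markers summed to 1656 to 3309 against 2041 to 2291, and Arg1 was at most 0.918. Kit is also on the list of 6 mast cell and basophil markers, whose sum was 59.0 to 114 against 181 to 237. On that list Cpa3, Mcpt8, Fcer1a and Ms4a2 were at or near 0, at most 13.3 in any library. Hdc, the histamine-forming enzyme, had 83.0, 34.4 and 55.5 against 10.3, 56.2 and 23.0 and did not pass, so the lower sum is that of Kit. The 4 eosinophil markers summed to 1.79 to 16.4 against 9.18 to 19.2. None of 6 regulatory T cell markers passed (3 had an unadjusted p below 0.05, 0 passed with edgeR and 2 with DESeq2), with sums of 19490 to 29320 against 19620 to 27040. None of the 4 B cell markers tested passed with limma (2 had an unadjusted p below 0.05, 0 passed with edgeR and 1 with DESeq2). The 5 myeloid markers summed to 54.6 to 102 against 97.3 to 193, and none of the 3 tested passed (0 with an unadjusted p below 0.05, 0 with edgeR and 0 with DESeq2).

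The genes whose pattern over the 6 libraries was nearest to each member were found by the root mean square difference of log2(normalised count + 1), each gene centred on its own mean, among 10932 genes with a mean of at least 50. These are descriptions, since all genes share the same 6 libraries. For Il17rb, which varied by 1.18 about its own mean, the nearest was Fgr, which encodes a SRC family kinase, at a difference of 0.156. Fgr stood at 73.8, 143 and 49.2 in the double knockout and 249, 328 and 336 in the control, so that its libraries held nearly the same order as those of Il17rb. Dennd3 (0.238) and Mapk12 (0.266) followed. For Gata3 the nearest were Pbxip1 (0.0371), Prr12 (0.0392) and Dennd1c (0.0427), each with double knockout replicate 3 as the lowest library. For Il4ra they were Cnr2 (0.126), Slc17a9 (0.181) and Cd72 (0.183), each highest in double knockout replicate 2. For Il1rl1 they were Gm17024 (0.219), Gzmk (0.333) and Hip1 (0.354). Between members, Gata3 and Il4ra were the nearest pair (0.411), and Il17rb and Il1rl1 the farthest (1.49). This measure depends on how much each gene varies about its own mean. That was 0.168 for Gata3, 0.434 for Il4ra and 0.829 for Il1rl1, so the order of pairs does not show a shared pattern.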

How the data were processed

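RNA sequencing of 6 libraries, 3 double knockout and 3 control, grouped by their titles, was analysed. The deposited table holds a normalised signal: for every gene, read counts that the authors scaled by a size factor of each library, per the file headers. It also holds the authors' log2 fold changes, standard errors and test statistic (score), and p-values, per the file headers. Build GRCm38 and the tools DESeq2 1.12.3, featureCounts 1.4.6 and STAR 2.5.1b are named, without roles, per the submitters' processing notes. Every value above 0 was a whole multiple of the smallest in its column (100% to within 0.001), which gave back whole reads. They came to 23392254 to 38368885 per library.

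Genes with a value of at least 10 in at least 3 libraries were tested with limma-trend (limma 3.58.1, R 4.3.3) on log2(value + 1), two-sided, with Benjamini-Hochberg adjustment over 13602 genes and a threshold of 0.05. On the recovered reads edgeR 4.0.16 called 405 genes, against 398 with limma. DESeq2 1.42.0, other pseudocounts, filters and scalings, a replicate block, the removal of single libraries and the authors' deposited comparison were further alternatives. The test was checked on simulated data. RPKM used the recovered reads and the union of exons in GENCODE M21. Motifs were searched in 250 bases before RefSeq starts. Python 3.11.15 with scipy 1.17.1 ran the exact permutation tests.

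Members and lists were chosen with earlier results of these data known. All 89 pathway genes had a row. Named were the 4 members, their partner chains, their families, list genes that passed (or the 2 with the smallest p), and the 3 genes nearest to each member. Other list genes and Actr8, Gm13256, Trdv5, Trdj1 and marker genes were named after their values were seen. The summed level of the B cell markers is not reported here.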

Additional observations from a re-analysis of the deposited data

How the results depend on the processing

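Gata3 and Il1rl1 kept their sign and did not pass under any of the 16 alternatives, the authors' deposited table among them, with log2 fold changes of 0.045 to 0.28 and of 0.22 to 1.25. Il4ra did not pass in any either. With single libraries removed it ran from -0.50 to 0.076. It turned positive without control replicate 3 (0.037), double knockout replicate 1 (0.076) or double knockout replicate 3 (0.055), and was -0.14 to -0.045 in the 9 other refits and -0.036 in the authors' deposited table. Il17rb stayed lower in all 16 and passed in the 9 refits that kept all libraries (adjusted p from 3.45e-06 to 0.0456, log2 fold changes of -2.22 to -2.02) and in the authors' deposited table (6.83e-07, -1.53). With single libraries left out it ran from -2.55 to -1.81 and lost its call in 4 of 6 fits, each with fewer samples. The count of 398 genes was 1098 with DESeq2, 993 in the authors' deposited table and 58 to 498 with single libraries removed. The 4 pathway genes past the threshold were 17 with DESeq2, 15 in the authors' deposited table and 0 to 8 with single libraries removed. With 0 called, without control replicate 1 or 2, limma gave 19 of 72 and 20 of 71 pathway genes an unadjusted p below 0.05. Over all genes these 2 fits gave 1734 of 13355 and 1935 of 13382. On all libraries edgeR called 5 pathway genes. With the replicate number as a block, the counts were 265 genes and 3 pathway genes, Il17rb passed (-2.17, adjusted p = 0.0456), Socs3 and Traf5 lost their calls and Il13ra1 gained one (0.0202). The numbers were not taken to pair the libraries: deviations of same-numbered libraries from their group means correlated at 0.074, 0.054 and 0.092, although each library correlated best with its own number. Depth limits Il1rl1 most, with 19 to 79 reads per library. Counting error alone was 15.3% and 19.7% of its level in the 2 genotypes, below the 58.9% and 54.6% spread between libraries. The cause of the lost calls and of the turned signs was not tested.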
